A study of Homo sapiens with 8 samples.

Results

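Fatty acid synthesis, storage and oxidation were followed through 46 genes in MDA-MB-157, an established human breast cancer cell line labelled estrogen receptor negative. The genes were taken by symbol from the expression table, which held all 46 among 21059 genes tested. They comprised 12 genes of synthesis, elongation and desaturation, 4 acyl-CoA synthetases, 12 genes of triglyceride assembly, lipid droplets and lipolysis, 15 genes of mitochondrial and peroxisomal beta-oxidation, and the 3 nuclear receptors of the PPAR family. Low glucose libraries came from cells kept in 5 mM glucose and high glucose libraries from cells kept in 25 mM glucose, each for 48 h, with 4 RNA-Seq libraries in either group. Per the study's methods all cells were held in low glucose medium beforehand, so the contrast is a step up in glucose. Both groups came from the same line, which is one model only, and per the study's methods the medium held no serum in either group. No library with an osmotic control at 5 mM glucose was among the 8, so the sugar and the osmolarity it adds cannot be told apart. The labels do not say whether the 4 replicates were separate flasks or separate experiments, and the p-values below measure the spread between these libraries.

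Cells make fatty acids from cytosolic acetyl-CoA, which ATP citrate lyase supplies from citrate and acetyl-CoA synthetase supplies from acetate. Acetyl-CoA carboxylase turns it into malonyl-CoA, fatty acid synthase extends that into palmitate, and desaturases and elongases shape the product. Acyl-CoAs are then either esterified to glycerol and kept in lipid droplets, or passed into mitochondria by carnitine palmitoyltransferase and shortened by beta-oxidation. Malonyl-CoA inhibits carnitine palmitoyltransferase, which ties the opposing routes together. The SREBP transcription factors drive the genes of synthesis, and the PPAR receptors, which bind fatty acids, drive many genes of oxidation and of droplets. Increased fatty acid synthesis is a known trait of many breast cancers.

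The values were read counts scaled to library size (CPM) that the authors had scaled by the trimmed mean of M-values (TMM). The steps between low values put the depth at 10389600 to 12104200 reads per low glucose library and 9721600 to 12482500 per high glucose library, so that 3 reads corresponded to 0.212 to 0.267 CPM. High glucose replicate 1 stood apart from the other libraries along transcript length. Over 11223 genes its deviation from the mean had a Spearman rho with transcript length of -0.65, against 0.25 to 0.47 in the other 3 high glucose libraries and -0.13 to 0.06 in the low glucose libraries. In that library the 15 oxidation genes, with a median transcript of 2184 bases, lay a median of 0.23 log2 units above the other 3 high glucose libraries (14 of 15 genes above), whereas the 12 synthesis genes, with a median transcript of 4328.5 bases, lay 0.04 below them. High glucose replicate 4 stood apart along GC content, with a rho of -0.49 against -0.16 to 0.34 in the other 7 libraries, and 3 of the 15 oxidation genes were higher in it than in the rest of its group (median difference -0.146 log2 units). ESR1, the estrogen receptor, was at 0 to 0.17 CPM, as the label says. PGR was at 4.33 to 5.18 CPM (low glucose) and 4.8 to 5.95 CPM (high glucose). ERBB2 was at 62.4 to 65.0 and 35.7 to 41.2 CPM. VIM, a mesenchymal marker, was at 4060 to 4120 and 2860 to 3280 CPM. The keratins KRT8 (126 to 138 and 76.4 to 101 CPM) and KRT18 (228 to 238 and 156 to 196 CPM) were expressed too. EPCAM was at 3.93 to 4.93 and 6.58 to 7.62 CPM. Of 6 adipocyte markers 3 were measured, with summed levels of 0.146 to 0.34 CPM (low glucose) and 0.353 to 0.825 CPM (high glucose), and FABP4 was at 0 to 0.0889 CPM. The 2 measured leukocyte markers summed to 9.55 to 13.5 CPM and 10.5 to 14.3 CPM, nearly all of it CD68, with PTPRC at 0.178 CPM or less, and the 2 endothelial markers to 1.02 to 1.6 and 1.51 to 2.84 CPM.

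At high glucose most of the 12 synthesis genes and 9 of the 15 oxidation genes were lower, whereas the storage genes went both ways. Among the few genes that rose were single ones of the entry to oxidation, of lipolysis and of droplets. SCD and ACSS2 had the largest falls of the synthesis genes (log2 changes of -1.21 and -1.19), and PNPLA2 and CPT1A had the largest rises (1.40 and 0.98). In the limma fit on log2(CPM + 1), 30 of the 46 genes passed an adjusted p of 0.05 (Benjamini-Hochberg over all genes), 6 higher and 24 lower at high glucose. Over all 21059 genes 46.8% passed, 22% higher and 24.8% lower. Most of the 46 were well expressed, so genes with a mean of at least 5 CPM are the closer background. Of the 42 such members, 28 (66.7%) passed, against 66.9% of the 11297 genes at that level. The share that passed was thus close to the background. By direction, 6 members (14.3%) were higher against 33.6% of the background, and 22 (52.4%) were lower against 33.3%. In RNA of a whole culture, a change in some cells and a change in every cell cannot be told apart. A change of at least 0.5 log2 units that passed the test was found in 16 members (38.1%) and in 33.6% of the background. The libraries of the 2 groups did not overlap for 26 of the 42 (61.9%) and for 65% of the background genes.

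**Figure D1:**
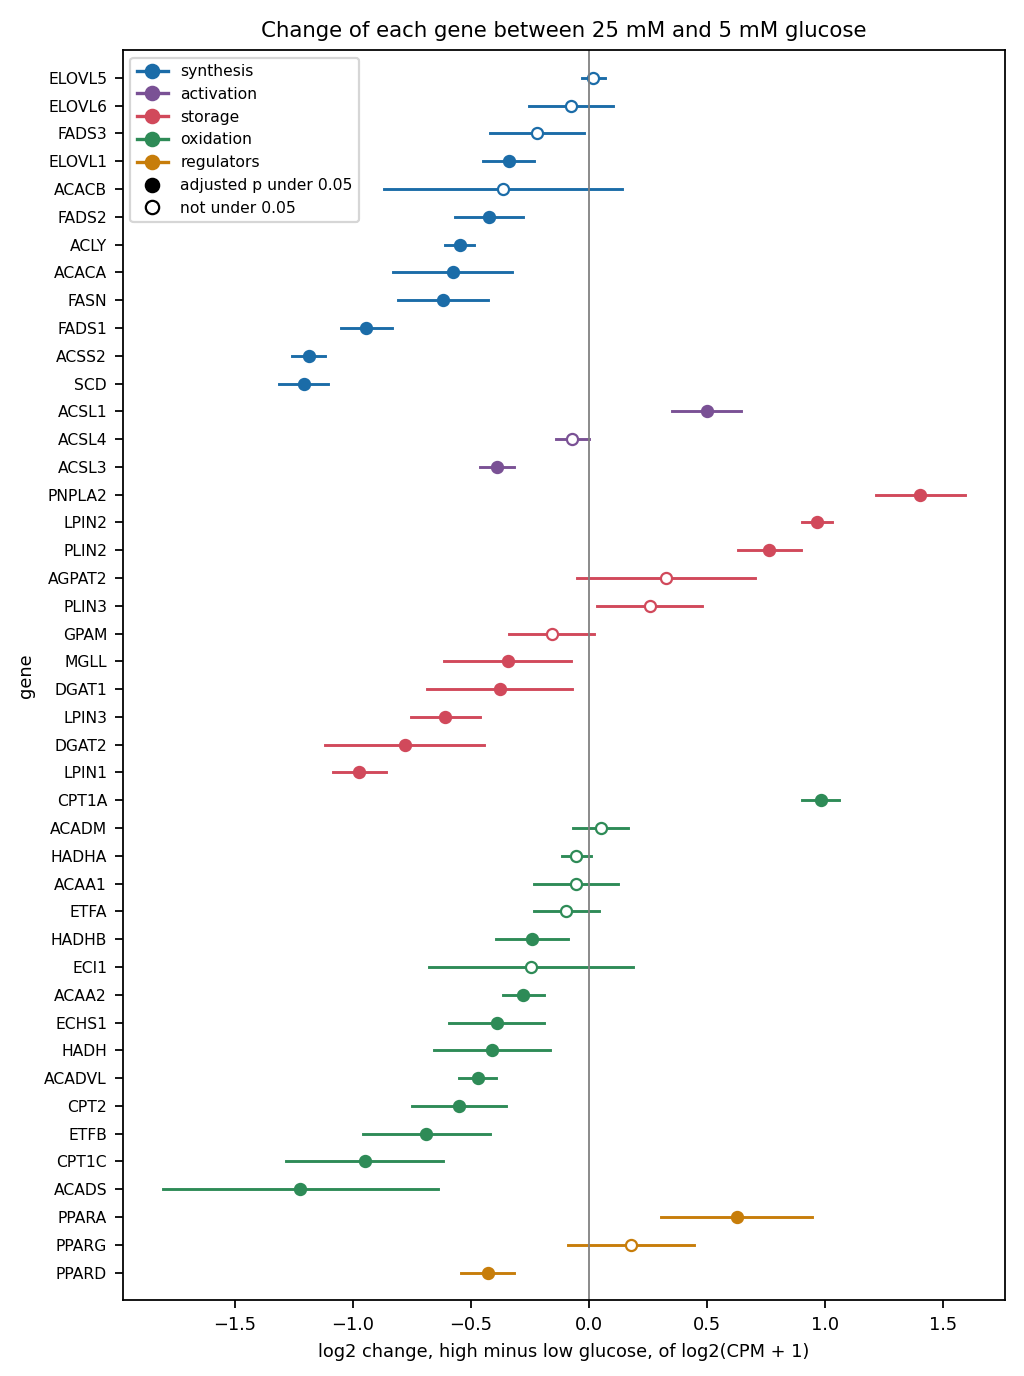
Log2 change (x axis, high minus low glucose on log2(CPM + 1)) of the 44 genes with a mean of at least 1 CPM, with 95% confidence intervals from limma, coloured by class, and filled where the adjusted p was under 0.05. The synthesis genes lie at or left of 0, and PNPLA2, LPIN2, PLIN2, CPT1A, PPARA and ACSL1 are the filled points to the right.

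By class, 8 of 12 synthesis genes were lower and 0 were higher, with a median log2 change of -0.49. Of the 12 storage genes 5 were lower and 3 higher (median -0.16), and of the 15 oxidation genes 9 were lower and 1 higher (median -0.28). The median over all genes at 5 CPM or more was -0.0071. Summed over its genes, synthesis went from 4414 ± 34.5 CPM (SD, n = 4) at low glucose to 2517 ± 54.4 CPM at high glucose, a ratio of 0.57. The libraries held 4364 to 4442 and 2439 to 2557 CPM. Storage went from 565.8 ± 5.2 to 650.0 ± 30.7 CPM, a ratio of 1.15, without overlap of the libraries. Oxidation was at 1141 ± 14.9 and 1106 ± 39.7 CPM. Its low glucose libraries held 1128 to 1162 CPM, and high glucose replicates 2, 3 and 4, at 1074, 1096 and 1088 CPM, lay below them. The groups overlapped through high glucose replicate 1 (1164 CPM), the library in which oxidation genes were raised against the rest of its group. A sum is carried by its most abundant members, and SCD alone accounted for much of the first. Without high glucose replicate 1 the medians were -0.47 for synthesis, -0.14 for storage and -0.37 for oxidation.

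**Figure D2:**
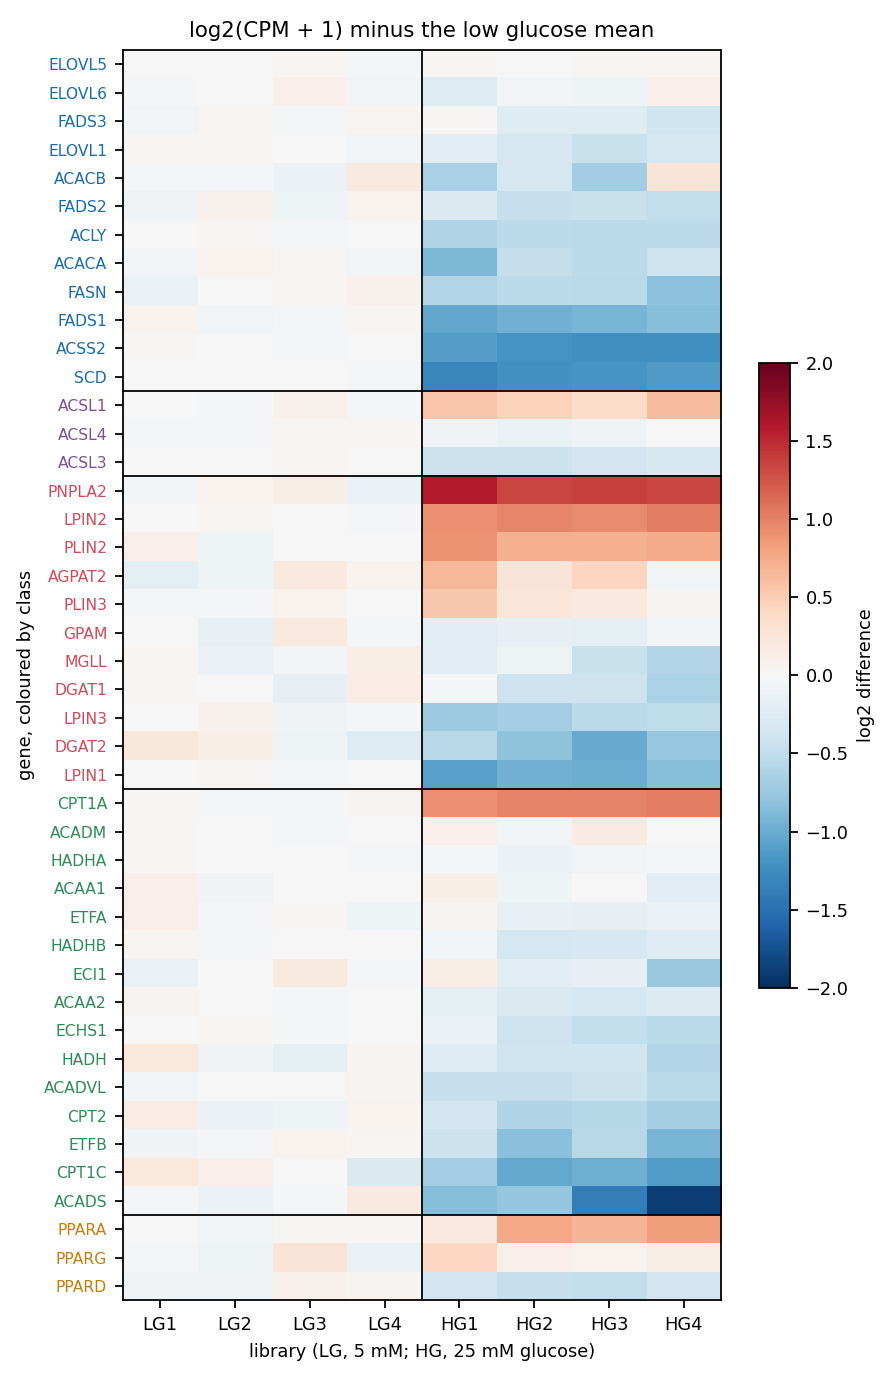
Value of each of the 44 genes in each library as log2(CPM + 1) minus the mean of the 4 low glucose libraries, grouped by class (synthesis, activation, storage, oxidation, regulators from top to bottom). Blue stands for lower and red for higher than that mean, and the low glucose libraries are near white throughout.

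The genes of the first steps of synthesis were lower at high glucose, apart from ACACB. ACSS2, the acetyl-CoA synthetase of cytosol and nucleus (ENSG00000131069, GRCh38 chr20:34874989-34927959), stood at 246.7, 243.5, 238.8 and 241.4 CPM in low glucose replicates 1 to 4 and at 112.4, 105.3, 103.3 and 103.5 CPM in high glucose replicates 1 to 4. All 4 high glucose libraries were thus far below every low glucose library, with a log2 change of -1.19 ± 0.0298 (SE, adjusted p = 8.55e-07). ACLY, ATP citrate lyase (ENSG00000131473, chr17:41866917-41930545), was at 562.4, 569.7, 551.3 and 560.6 CPM and then at 368.2, 391.6, 385.4 and 389.4 CPM. Its log2 change was -0.55 ± 0.0258 (adjusted p = 6.1e-06). Both suppliers of cytosolic acetyl-CoA, from citrate and from acetate, were therefore lower at high glucose.

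ACACA, acetyl-CoA carboxylase 1 (ENSG00000278540, chr17:37084992-37406836), had 134.2, 147.4, 142.1 and 135.1 CPM at low glucose and 74.2, 100.4, 97.2 and 104.5 CPM at high glucose. The lowest value was that of high glucose replicate 1, and its transcript is, at 10007 bases, among the longest of the set. The log2 change was -0.58 ± 0.107 (adjusted p = 0.0036) with that library and -0.47 (adjusted p = 0.00024) without it. ACACB, the mitochondrial carboxylase whose malonyl-CoA restrains CPT1, was expressed at 7.46 ± 0.742 CPM and 5.81 ± 2.26 CPM (SD, n = 4). It did not pass the test (log2 change -0.36, 95% interval -0.87 to 0.14), and without high glucose replicate 4, the highest of its group at 9.07 CPM, the change was -0.57 (adjusted p = 0.00867). FASN, fatty acid synthase (ENSG00000169710, chr17:82078338-82098236), stood at 696.8, 770.5, 785.7 and 816.0 CPM at low glucose and at 508.1, 533.0, 528.4 and 432.6 CPM at high glucose. The groups did not overlap, and the log2 change was -0.62 ± 0.0806 (adjusted p = 0.000663). The lowest library of FASN was high glucose replicate 4, which stood apart along GC content, and the FASN transcript is 65.3% GC. Without that library the change was -0.55 (adjusted p = 0.000634), and with the GC trend removed it was -0.48 (adjusted p = 2.74e-06).

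SCD, the stearoyl-CoA desaturase that makes oleate and palmitoleate (ENSG00000099194, chr10:100347233-100364826), was the most abundant of all 46 genes per kilobase of transcript. It had 1985, 1983, 1975 and 1948 CPM in the low glucose libraries and 799.5, 852.1, 870.6 and 897.6 CPM in the high glucose libraries. Its high glucose mean was 43.3% of the low glucose mean, with a log2 change of -1.21 ± 0.0438 (adjusted p = 2.4e-06), lower than that of all but 1.67% of the genes at 5 CPM or more. Of the 31-base words of the SCD transcript, 12.9% also occur in other genes, the most in ENSG00000264215. How reads were divided between SCD and these genes is not given in the sources used here. FADS1, the delta-5 desaturase of polyunsaturated fatty acids (ENSG00000149485, chr11:61799627-61817003), was at 256.2, 236.4, 238.3 and 250.6 CPM and then at 119.3, 125.9, 127.7 and 136.1 CPM. No high glucose library came near the low glucose range, and the log2 change was -0.94 ± 0.0455 (adjusted p = 6.86e-06). The delta-6 desaturase FADS2 fell from 47.8 ± 2.99 to 35.4 ± 2.36 CPM (SD, n = 4; log2 change -0.42, adjusted p = 0.00102). FADS3, which lies beside them, was at 40.2 ± 1.29 and 34.6 ± 4.43 CPM and did not pass (adjusted p = 0.0719), but passed without high glucose replicate 1 (log2 change -0.30, adjusted p = 0.00331).

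The elongases of the set were divided. ELOVL1, which extends very long saturated and monounsaturated acyl-CoAs, fell from 77.7 ± 2.18 to 61.2 ± 3.76 CPM (log2 change -0.34, adjusted p = 0.000754). ELOVL5, which elongates polyunsaturated acyl-CoAs, was at 266.0 ± 5.51 CPM at low glucose and 270.0 ± 3.86 CPM at high glucose. Its log2 change of 0.019 had a 95% interval of -0.030 to 0.069, so any change was small. ELOVL6, which extends palmitate to stearate, was at 45.8 ± 2.26 and 43.5 ± 4.47 CPM, with a log2 change of -0.076 (95% interval -0.25 to 0.10). Of the 3 elongases in the set, ELOVL1 was thus the one that passed.

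**Figure D3:**
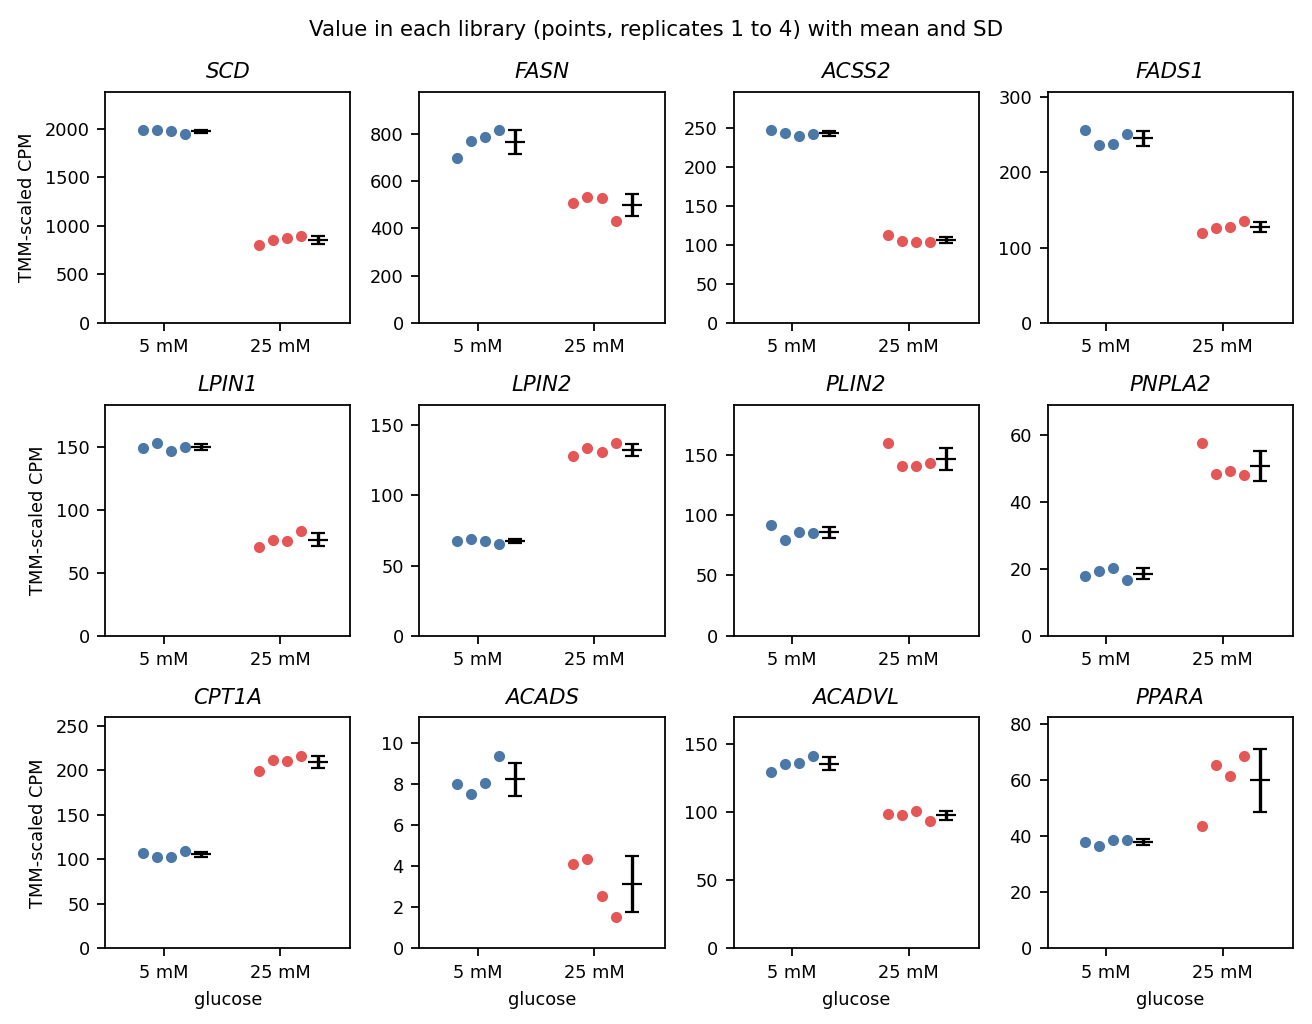
TMM-scaled CPM of 12 genes in each of the 8 libraries (points, replicates 1 to 4 from left to right within a group), with the mean and SD of each group (black); y axes start at 0. The 12 genes were picked by hand from those that passed the test. Their high glucose libraries lie wholly below or wholly above the low glucose libraries. Among genes at 5 CPM or more this held for 61.9% of the members and for 65% of all genes.

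The promoters of the 2 synthesis genes with the largest falls were taken as the 250 bases before the RefSeq start of each gene (GRCh38.p14, 5′ to 3′ on the gene's strand), so that the letters bound by known lipogenic factors can be seen. Capitals mark CCAAT on either strand, the letters bound by NF-Y, a partner of the SREBPs, and the sterol element TCACNCCAC on either strand. SCD lies on the plus strand (chr10:100346983-100347232) and ACSS2 on the plus strand (chr20:34874739-34874988).
SCD: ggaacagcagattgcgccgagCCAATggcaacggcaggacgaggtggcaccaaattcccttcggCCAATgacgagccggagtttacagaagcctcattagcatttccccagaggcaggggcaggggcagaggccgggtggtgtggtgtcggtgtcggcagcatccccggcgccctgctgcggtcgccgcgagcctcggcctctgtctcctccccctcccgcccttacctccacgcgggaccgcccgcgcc
ACSS2: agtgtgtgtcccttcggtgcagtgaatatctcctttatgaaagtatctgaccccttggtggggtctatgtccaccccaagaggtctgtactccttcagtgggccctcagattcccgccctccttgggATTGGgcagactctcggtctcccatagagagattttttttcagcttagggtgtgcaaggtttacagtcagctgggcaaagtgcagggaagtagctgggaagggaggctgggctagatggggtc
SCD held CCAAT at positions -229 and -186 from its start, and ACSS2 held it at -123 on the reverse strand. Neither held TCACNCCAC. The set of RefSeq windows used here (250 bases before to 50 bases after a start, 1 start per gene) covered 40 of the 46 genes. FASN, DGAT1, DGAT2, LPIN3, MGLL and ACAA1 had no window in it. For ACLY, LPIN1, GPAM, ETFB and ACACB, among others, the window lay at a start inside the gene. The outermost start of these genes was not searched. CCAAT occurred in 15 of the 40, in 8 of the 19 matched genes that were lower and in 1 of the 6 that were higher, and in 34.6% of the 35116 windows of all genes. TCACNCCAC occurred in 1 of the 40 and in 1.13% of all windows, and the E box CACGTG, bound by SREBP-1 and by the glucose-responsive factor ChREBP, in 2 of the 40 (ELOVL5 and PLIN2) and in 7.26% of all. The direct repeat of AGGTCA with 1 base between, the exact letters of the PPAR element, occurred in 0 of the 40 and in 0.0228% of all. At so low a rate a set of 40 would seldom hold it, so the 0 says nothing about these genes. Other spellings of the element were not searched. The single unit AGGTCA, which is part of it, occurred in 4 of the 40 and in 13.8% of all. These are counts of letters, and were not tested.

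The acyl-CoA synthetases, which activate free fatty acids for either route, moved in both directions. ACSL3, the isoform of endoplasmic reticulum and nascent lipid droplets (ENSG00000123983, chr2:222861036-222944639), had 472.7, 471.9, 479.4 and 472.1 CPM at low glucose and 351.2, 351.8, 364.4 and 381.4 CPM at high glucose. The groups were well apart (log2 change -0.39 ± 0.03, adjusted p = 5.22e-05). ACSL1, which feeds both triglyceride and oxidation, rose from 26.0 ± 1.16 to 37.2 ± 3.06 CPM (SD, n = 4; log2 change 0.50, adjusted p = 0.000538). ACSL4, which prefers arachidonate, was at 102.7 and 97.8 CPM (log2 change -0.070, adjusted p = 0.0957), and passed without high glucose replicate 4 (log2 change -0.090, adjusted p = 0.0386) and under 3 of the other settings tried. ACSL5 was at 0.0889 to 0.638 CPM, near the level of 3 reads, and no fold change is given. Of the summed level of the 4 synthetases per kilobase of transcript, ACSL3 made up 74.8 to 75.5% in the low and 67.4 to 69.2% in the high glucose libraries, and ACSL1 made up 6.01 to 6.5% and 9.6 to 11.1%.

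In triglyceride assembly the lipins changed places. Lipins are the phosphatidate phosphatases that make diacylglycerol, and lipin 1 also acts in the nucleus as a coactivator. LPIN1 (ENSG00000134324, chr2:11677544-11827409) was at 149.9, 153.5, 147.5 and 150.6 CPM at low glucose and at 70.4, 76.5, 75.3 and 83.2 CPM at high glucose (log2 change -0.97 ± 0.0477, adjusted p = 7.38e-06). LPIN2 (ENSG00000101577, chr18:2916994-3013144) moved the other way, with 67.4, 68.8, 67.3 and 65.5 CPM and then 127.8, 133.5, 131.1 and 137.4 CPM (log2 change 0.97 ± 0.0265, adjusted p = 1.07e-06). Each library of one group was thus on the far side of each library of the other, for both genes and in opposite directions. LPIN3 (ENSG00000132793) fell with LPIN1, from 36.7, 38.6, 34.6 and 35.9 CPM to 21.6, 22.3, 25.2 and 25.3 CPM (log2 change -0.61 ± 0.0618, adjusted p = 0.000194). Of the 3 lipins summed per kilobase, LPIN1 made up 58.5 to 59.4% at low and 33.2 to 35.0% at high glucose, whereas LPIN2 made up 23.3 to 24.2% and 52.0 to 54.3%, so LPIN2 became the most abundant. On the opposite strand, exons of other genes cover 8.7% of the transcript of LPIN2 and 13.9% of that of LPIN3.

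The remaining assembly enzymes had lower levels or did not pass the test. DGAT2, which adds the third fatty acid to diacylglycerol (ENSG00000062282), was low, at 5.92, 5.47, 4.50 and 3.93 CPM at low glucose and 3.04, 2.39, 1.93 and 2.49 CPM at high glucose. Exons on the opposite strand cover 17.6% of its transcript. The groups did not overlap, the ratio of the means was 0.497 and the log2 change, which understates such low values, was -0.78 ± 0.143 (adjusted p = 0.00344). DGAT1, which catalyses the same step, was at 19.5 ± 1.81 and 14.9 ± 2.82 CPM, with overlapping libraries and a log2 change of -0.38 (adjusted p = 0.0493). This call was marginal: without low glucose replicate 1, 2 or 4 or high glucose replicate 2, 3 or 4 the adjusted p was 0.0991 to 0.119. GPAM, the mitochondrial glycerol phosphate acyltransferase, was at 29.2 ± 3.08 and 26.0 ± 1.43 CPM (log2 change -0.16, 95% interval -0.34 to 0.024). AGPAT2, the next acyltransferase, was at 19.3 ± 2.31 and 24.7 ± 5.24 CPM (log2 change 0.33, 95% interval -0.051 to 0.70), and passed without high glucose replicate 4 (log2 change 0.45, adjusted p = 0.0287).

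A coat protein of lipid droplets, PLIN2, and the first lipase of lipolysis, PNPLA2, were higher at high glucose. PLIN2, which coats droplets in most cells (ENSG00000147872, chr9:19108388-19127492), had 91.7, 79.8, 86.2 and 85.7 CPM at low glucose and 160.2, 141.1, 141.3 and 143.7 CPM at high glucose. Its log2 change was 0.76 ± 0.0559 (adjusted p = 3.97e-05), with high glucose replicate 1 the highest library, and 0.72 (adjusted p = 5.56e-05) without it. PLIN3 (ENSG00000105355), a coat protein that exchanges with the cytosol, was at 108.1, 107.9, 115.7 and 111.2 CPM and at 160.4, 131.0, 127.3 and 115.4 CPM. The lowest high glucose library lay within the low glucose range, and the change of 0.26 ± 0.0945 did not pass (adjusted p = 0.0601). It passed without high glucose replicate 1 (log2 change 0.17, adjusted p = 0.033) and without high glucose replicate 4 (log2 change 0.32, adjusted p = 0.0227). Exons on the opposite strand cover 22.5% of its transcript.

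PNPLA2, adipose triglyceride lipase, which removes the first fatty acid from stored triglyceride (ENSG00000177666, chr11:818914-825573), had the largest rise of the 46 genes. It stood at 17.9, 19.5, 20.3 and 16.8 CPM in low glucose replicates 1 to 4 and at 57.7, 48.4, 49.2 and 48.2 CPM in high glucose replicates 1 to 4. The high glucose mean was 2.73 times the low glucose mean, and the log2 change was 1.40 ± 0.0798 (adjusted p = 1.31e-05), above that of 99.1% of the genes at 5 CPM or more. Without high glucose replicate 1, its highest library, the change was 1.34 (adjusted p = 2.22e-05). Exons on the opposite strand cover 13.7% of its transcript, and whether counting used the strand is not given in the sources used here. LIPE, hormone-sensitive lipase, which takes the second fatty acid in adipose tissue, was at 0 in 7 libraries and at 0.0849 CPM, or 1 read, in low glucose replicate 3, which is under the level of 3 reads throughout. MGLL, which releases the last fatty acid, was at 23.6 ± 1.9 and 18.5 ± 2.93 CPM with overlapping libraries (log2 change -0.34, adjusted p = 0.0433), and without any one of the low glucose replicates or high glucose replicate 1, 3 or 4 the adjusted p was 0.0503 to 0.107.

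The promoter windows of the 2 genes with the largest rises are given for comparison, again as the 250 bases before the RefSeq start (GRCh38.p14, 5′ to 3′ on the gene's strand, capitals as above). PNPLA2 lies on the plus strand (chr11:818664-818913) and CPT1A on the minus strand (chr11:68844278-68844527).
PNPLA2: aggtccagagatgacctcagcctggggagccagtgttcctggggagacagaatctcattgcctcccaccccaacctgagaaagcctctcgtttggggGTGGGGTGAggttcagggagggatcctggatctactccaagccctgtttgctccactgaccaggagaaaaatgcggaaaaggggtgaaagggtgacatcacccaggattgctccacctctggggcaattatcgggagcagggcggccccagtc
CPT1A: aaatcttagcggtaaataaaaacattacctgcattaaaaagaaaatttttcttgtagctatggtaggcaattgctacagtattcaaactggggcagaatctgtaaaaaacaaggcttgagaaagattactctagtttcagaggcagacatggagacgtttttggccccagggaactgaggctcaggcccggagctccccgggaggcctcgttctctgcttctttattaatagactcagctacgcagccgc
The window of PNPLA2 was the one of the 40 that held TCACNCCAC, at position -153 on the reverse strand. In that of CPT1A none of the motifs searched occurred.

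In oxidation, CPT1A, one isoform of the gate into mitochondria, rose, while each of the other 14 members was lower or did not pass the test. CPT1A, the outer membrane carnitine palmitoyltransferase that malonyl-CoA inhibits (ENSG00000110090, chr11:68754620-68844277), had 107.4, 102.4, 102.9 and 109.0 CPM at low glucose and 199.1, 211.2, 210.1 and 216.2 CPM at high glucose. The groups were far apart, with a high glucose mean 1.98 times the low glucose mean and a log2 change of 0.98 ± 0.0329 (adjusted p = 1.94e-06). CPT1C, the isoform best known from neurons (ENSG00000169169), was scarce and fell, from 7.09, 6.54, 5.95 and 4.74 CPM to 3.39, 2.47, 2.56 and 2.22 CPM (ratio of the means 0.438, log2 change -0.95 ± 0.141, adjusted p = 0.00126). CPT1B, the muscle-type isoform, which is outside the 46 genes and was looked up after its values were seen, fell from 42.5 ± 1.88 to 29.2 ± 2.45 CPM (log2 change -0.53, adjusted p = 0.000468). Its count is uncertain, since a read-through gene with CHKB overlaps it. Of the 3 isoforms summed per kilobase, CPT1A made up 50.9 to 54.6% in the low and 74.2 to 79.4% in the high glucose libraries, CPT1B 41.1 to 43.0% and 19.1 to 23.5%, and CPT1C 6.18% or less. CPT2, the inner membrane enzyme that completes the shuttle (ENSG00000157184), went from 23.1, 19.1, 19.5 and 21.8 CPM to 15.8, 13.4, 13.7 and 12.8 CPM, without overlap (log2 change -0.55 ± 0.0837, adjusted p = 0.00142). Exons of genes on the opposite strand cover 37.7% of the CPT2 transcript, and their reads could not be separated here.

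Of the 3 acyl-CoA dehydrogenases, which act on chains of different length, 2 fell. ACADVL, for very long chains, fell from 135.5 to 97.5 CPM (SDs 4.75 and 3.12, n = 4; log2 change -0.47, adjusted p = 3.45e-05). ACADM, for medium chains, was at 33.9 ± 0.635 and 35.2 ± 2.48 CPM, with a log2 change of 0.051 (95% interval -0.066 to 0.17). ACADS, for short chains (ENSG00000122971, chr12:120725826-120740008), was at 8.0, 7.54, 8.07 and 9.40 CPM at low glucose and at 4.09, 4.38, 2.56 and 1.51 CPM at high glucose. All high glucose libraries were below all low glucose libraries but they differed widely among themselves, and the log2 change, the largest fall of the set, was -1.22 ± 0.247 (adjusted p = 0.00543). The lowest library was high glucose replicate 4, and without it the change was -1.003 (adjusted p = 0.00378). Electrons from these enzymes pass to the electron transfer flavoprotein. Its subunit ETFB (ENSG00000105379) fell from 20.6, 21.0, 22.7 and 22.3 CPM to 15.8, 11.6, 14.4 and 10.9 CPM (log2 change -0.69 ± 0.114, adjusted p = 0.00209). Without high glucose replicate 4, its lowest library, the change was -0.61 (adjusted p = 0.00405). However, 36.6% of the 31-base words of ETFB also occur in other genes, the most in ENSG00000269403, which overlaps it on the same strand. The partner subunit ETFA was at 93.1 ± 5.08 and 87.1 ± 6.11 CPM and did not pass (log2 change -0.096, adjusted p = 0.229), although it did without high glucose replicate 1 (log2 change -0.14, adjusted p = 0.0353).

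Of the 7 genes of the later steps of beta-oxidation 4 fell, by at most 0.41 on the log2 scale. HADHA, the alpha subunit of the trifunctional protein (ENSG00000084754, chr2:26190635-26244632), was the most abundant oxidation gene, with 375.8, 369.6, 372.5 and 363.0 CPM at low glucose and 366.1, 342.7, 355.6 and 363.6 CPM at high glucose. The groups overlapped and the log2 change of -0.053 had a 95% interval of -0.11 to 0.0089. Of the 31-base words of HADHA, 19.2% also occur in other genes, the most in the pseudogene HADHAP2. Its partner HADHB, encoded next to it on the opposite strand, was at 150.0 ± 2.58 and 127.1 ± 12.5 CPM (log2 change -0.24, adjusted p = 0.0186), and missed the threshold without low glucose replicate 1 (adjusted p = 0.0502) or high glucose replicate 3 (adjusted p = 0.0509). ECHS1, the short-chain enoyl-CoA hydratase, fell by 0.39 on the log2 scale (80.1 ± 1.66 to 61.2 ± 8.19 CPM, adjusted p = 0.00777), and HADH, the dehydrogenase of shorter chains, fell by 0.41 (26.9 ± 3.42 to 19.9 ± 1.94 CPM, adjusted p = 0.0147). ACAA2, the mitochondrial thiolase, fell by 0.28 (40.3 ± 1.18 to 33.1 ± 1.45 CPM, adjusted p = 0.000707), and shares 34.3% of its 31-base words with other genes, the most with ACAA2P1. ACAA1, the peroxisomal thiolase, was at 34.3 ± 1.73 and 33.1 ± 3.41 CPM (log2 change -0.054, 95% interval -0.23 to 0.12), and exons of DLEC1 on the opposite strand cover 24.0% of its transcript. ECI1, which handles unsaturated chains, was at 14.3 ± 1.47 and 12.2 ± 3.14 CPM (log2 change -0.24, 95% interval -0.68 to 0.19). Without high glucose replicate 4, its lowest library, that change was -0.078.

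The PPAR receptors, each with its own tissue range, did not move together. PPARA, the receptor best known for inducing oxidation genes in liver (ENSG00000186951, chr22:46150526-46243756), was at 37.9, 36.5, 38.6 and 38.8 CPM at low glucose and at 43.8, 65.6, 61.7 and 68.8 CPM at high glucose. The value of high glucose replicate 1 was lower than in the other high glucose libraries but still above every low glucose library, and the log2 change was 0.63 ± 0.135 (adjusted p = 0.00731) with it and 0.77 (adjusted p = 3.29e-05) without it; the PPARA transcript of 10118 bases is the longest of the set. PPARD, which is expressed in most tissues, fell from 32.6 ± 1.83 to 23.9 ± 0.991 CPM (SD, n = 4; log2 change -0.43, adjusted p = 0.000302). PPARG, the receptor of adipocyte differentiation (ENSG00000132170), was at 13, 12.3, 16.1 and 12 CPM and at 18, 14.4, 14 and 14.4 CPM. Its groups overlapped, and the log2 change of 0.18 had a 95% interval of -0.090 to 0.45. Per kilobase, PPARD held 41.9 to 46% of the summed level of the 3 receptors in the low glucose libraries, against 30.0 to 31.5% in the others.

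Per kilobase of transcript the 46 genes spanned a wide range of levels, and the order near its top changed. At low glucose SCD had a mean of 376 CPM per kilobase, followed by ACLY at 131 and HADHA at 126, then ELOVL5 at 96.4 and FASN at 90.6. At high glucose SCD was at 163, HADHA at 121 and ELOVL5 at 97.7, followed by ACLY at 89.4 and PLIN2 at 77.3. CPT1A moved from 20.1 to 39.9 CPM per kilobase and PNPLA2 from 7.7 to 21.1. SCD thus still headed the list at high glucose, with HADHA, an oxidation gene, next, but the distance between SCD and the next gene had become much shorter.

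**Figure D4:**
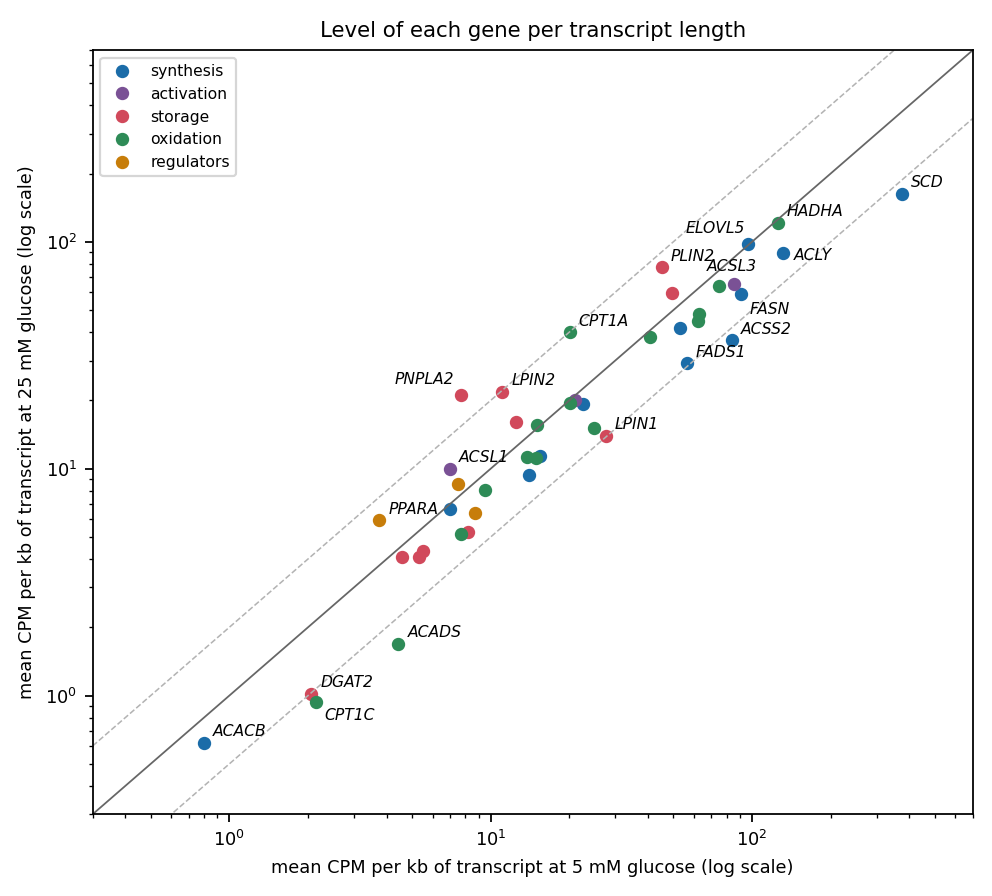
Mean CPM per kilobase of transcript at high glucose (y axis) against low glucose (x axis), both on a log scale, for the 44 genes with a mean of at least 1 CPM. The solid line marks equal levels and the dashed lines a ratio of 2 in either direction; SCD, ACSS2, ACADS, CPT1C and DGAT2 lie below the lower dashed line and PNPLA2 above the upper one.

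Other genes of the same pathways were counted from a list of 120, of which 115 were in the table and 98 had a mean of at least 1 CPM. Of the 115, 71 passed the test, 21 higher and 50 lower at high glucose, and all 71 were among the 98. Over all genes 46.8% passed, 22% higher and 24.8% lower. At 5 CPM or more 66.9% passed, 33.6% higher and 33.3% lower. The count of 71 is therefore not read as an excess, and these shares are also the background for the counts by class below. Among 32 other oxidation genes 19 were lower and 3 higher. The 3 that rose, named after their values were seen, were SLC25A20, the carrier that brings acylcarnitines across the inner membrane (7.41 ± 1.21 to 13.5 ± 0.514 CPM, log2 change 0.80, adjusted p = 0.000671), ABCD3, a peroxisomal transporter (log2 change 0.47, adjusted p = 0.000148), and HACL1, of peroxisomal alpha-oxidation (log2 change 0.14, adjusted p = 0.0309, and 0.0609 without high glucose replicate 1). Among 16 other genes of fatty acid uptake and activation 10 were lower and 1 higher, and among 22 other storage genes 9 were lower and 5 higher. Other synthesis and elongation genes were split, with 4 lower and 6 higher of 18. The genes named here are those with the smallest adjusted p of each class. All 4 named from synthesis were elongation genes that rose. ELOVL4, which makes very long chains, went from 28.7 ± 1.4 to 80.4 ± 3.49 CPM (log2 change 1.46, adjusted p = 1.53e-06), and HACD2, a dehydratase of the elongation cycle, from 60.9 ± 2.34 to 148 ± 4.56 CPM (log2 change 1.27, adjusted p = 9.9e-07). HACD1, of the same family, rose by 1.01 on the log2 scale (adjusted p = 6.94e-05), and ELOVL7, from 2.94 ± 0.29 to 7.89 ± 0.932 CPM, by 1.17 (adjusted p = 8.09e-05). These rises in elongation genes stood beside the falls of FASN, ACACA and SCD.

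Outside synthesis most of the named genes were lower. Of the uptake and activation genes, the transporter SLC27A3 had a log2 change of -1.02 (adjusted p = 4.44e-05), ACSF2 of -0.49 (adjusted p = 6.6e-05) and ACSM3 of -0.80 (adjusted p = 0.000828), whereas FABP5, which carries fatty acids in the cytosol, rose from 21.5 ± 1.31 to 40.0 ± 4.97 CPM (log2 change 0.86, adjusted p = 0.000236). In storage, ABHD5, the coactivator of PNPLA2, rose from 6.16 ± 0.335 to 11.6 ± 0.76 CPM (log2 change 0.82, adjusted p = 5e-05). Lipase and coactivator were thus both higher. LIPA, the lysosomal lipase, fell from 237 ± 5.97 to 136 ± 3.12 CPM (log2 change -0.80, adjusted p = 1.6e-06), the droplet protein LDAH changed by -0.70 (adjusted p = 3.58e-05) and AGPAT1, a paralog of AGPAT2, by -0.49 (adjusted p = 1.55e-05). In oxidation, DECR1, which reduces dienoyl-CoAs, had a log2 change of -0.90 (adjusted p = 1.76e-05), ACAD9 of -0.82 (adjusted p = 3.54e-05), PHYH, which starts peroxisomal alpha-oxidation, of -1.01 (adjusted p = 1.1e-05) and HSD17B4, of peroxisomal beta-oxidation, of -0.59 (adjusted p = 1.08e-05).

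Regulators of the pathways were measured as well, by their transcripts only. SREBF1, which encodes SREBP-1, the main activator of fatty acid synthesis genes, was at 97.5, 102.2, 96.1 and 109.5 CPM at low glucose and at 78.7, 70.4, 66.7 and 52.7 CPM at high glucose (log2 change -0.60 ± 0.118, adjusted p = 0.00478). Its lowest library was high glucose replicate 4, and without it the change was -0.49 (adjusted p = 0.00222). The groups did not overlap, and SREBF1 was lower together with FASN, ACACA, ACLY and SCD. SREBF2, which encodes the SREBP of cholesterol synthesis, was close in both groups, at 264 ± 6.03 and 245 ± 4.82 CPM (log2 change -0.11, adjusted p = 0.00688), and its sign turned when a trend with GC content was removed (0.043). INSIG1, which retains the SREBPs in the endoplasmic reticulum and is itself one of their targets, fell from 412 ± 4.99 to 279 ± 14.6 CPM (log2 change -0.56, adjusted p = 2.61e-05), and MBTPS1, the protease that releases SREBPs, changed by -0.50 (adjusted p = 3.84e-05). MLXIPL, which encodes the glucose-responsive factor ChREBP, was scarce, at 5.03 ± 0.382 and 2.35 ± 1.11 CPM (log2 change -0.91, adjusted p = 0.0202). Without low glucose replicate 2 or 4 or high glucose replicate 2 its adjusted p was 0.0513 to 0.0523, and with the replicate number as a block 0.0587. Its paralog MLXIP was higher, at 46.4 ± 2.83 and 59.1 ± 3.23 CPM (log2 change 0.34, adjusted p = 0.00174).

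Of the PPAR coactivators, the 2 named by the rule rose. PPARGC1A, which encodes PGC-1alpha, a coactivator of PPARA on oxidation and mitochondrial genes, was at 18.8, 19.5, 16.6 and 18 CPM at low glucose and at 52.6, 66.6, 64.6 and 72.7 CPM at high glucose (log2 change 1.75 ± 0.101, adjusted p = 1.39e-05). The groups were far apart, and this was the largest rise among the 115 genes. PPRC1, a related coactivator, went from 55.2 ± 1.17 to 90.0 ± 4.68 CPM (log2 change 0.69, adjusted p = 1.29e-05). PPARA, PPARGC1A and CPT1A were thus higher in the same libraries in which ACADVL, ACADS, CPT2 and ETFB were lower.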

How the data were processed

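The expression table held, per the labels and file headers, normalized CPM values (counts scaled to library size) for each gene and library that the authors had scaled by TMM in edgeR. The submitters' processing notes name the build hg38. The study's methods describe the tumor libraries first, with a stranded TruSeq kit, a NovaSeq sequencer and Tophat alignment to hg19 with an Ensembl annotation. For the cultured cell lines the methods name a HiSeq sequencer, as do the labels of these libraries, which also name hg38. Whether the kit, aligner, build and annotation given for the tumor libraries also hold here was not settled. Printed positions are those of the genes on GRCh38. The counter and whether counting used the strand are not given in the sources used here, and no raw counts were used. Only 72.2 to 74.0% of low values came out as whole reads (tolerance 0.01), so no count test was run. The 18 lines for Y copies of pseudoautosomal genes, identical to their X copies, were left out, which left 21059 genes. Values were taken as log2(CPM + 1), a scale that understates changes of low genes, and fitted with limma 3.58.1 (with a mean-variance trend, R 4.3.3), 4 high against 4 low glucose libraries, two-sided, with Benjamini-Hochberg adjustment over all genes and a threshold of 0.05. The fit was tested on simulated data with independent noise for each gene and library. These data held no trend with length or GC content, so that test does not cover the patterns of high glucose replicates 1 and 4. Squared differences between low glucose libraries were 1.45 to 2.26 times counting noise, so these varied little beyond it. Between high glucose libraries they were 2.57 to 4.36 times counting noise without replicate 1 and 11.13 to 18.81 times in pairs with it. No library was thus a copy of another. Depth sets only the least error of a value, and the level of 3 reads covers counting error only. Between high glucose libraries the spread was larger than that error. Transcript lengths, shared 31-base words and overlaps came from GENCODE 44 on GRCh37, which supplied no coordinates, and positions and promoters from RefSeq on GRCh38.p14. Genes named with every library passed the test with an absolute log2 change of at least 0.5, or were the most abundant of their class. Other pathway genes were named by the smallest adjusted p (at most 4 per class, mean of at least 1 CPM), plus SREBF1, SREBF2, MLXIPL and MLXIP. The 46 genes and all lists were chosen with earlier results of these data known. Alternatives covered the pseudocount, low-value filters, scalings, library weights, length and GC trends, a replicate block and each library left out.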

Additional observations from a re-analysis of the deposited data

Results flagged for a closer look

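In a group of 4 libraries, the gap between an extreme library and its nearest neighbour was compared with the range of the group, with Dixon's 95% limit for 4 samples. Of 140 groups examined, 8 exceeded it, where chance gives about 7.0, 1 in 20. In 5 of the 8 it was high glucose replicate 1, the library that stood apart along transcript length, that was the highest: PLIN2 (0.863, at 160.2 CPM against 141.1 to 143.7 CPM in the other 3), PNPLA2 (0.888, at 57.7 against 48.2 to 49.2 CPM), ETFA (0.847, at 96.2 against 83.1 to 85.1 CPM), PPARG (0.905, at 18 against 14 to 14.4 CPM) and INSIG1 (0.836, at 300.6 against 269.9 to 274.9 CPM). The part of that library's length pattern in these values was not tested. In the other 3 groups it was low glucose replicate 3 that was the highest: ACSL3 (0.897, at 479.4 against 471.9 to 472.7 CPM), PPRC1 (0.98, at 57 against 54.6 to 54.7 CPM) and LIPE (1.0, 1 read against 0 in each of the others). Without high glucose replicate 1 the calls of PLIN2 and PNPLA2 held, with log2 changes of 0.72 and 1.34.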

How the results depend on the processing

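Of the 30 genes that passed the test, 27 did so under each of the 18 alternatives they could be fitted in, the exceptions being DGAT1, MGLL and HADHB, and none of the 30 changed sign. Genes that had not passed were less stable. Of those with a fold change, only 2, ELOVL6 and ECI1, neither passed nor changed sign in any alternative. PLIN3 stayed above the threshold in 9 of 18 alternatives and AGPAT2 in 13. HADHA passed with quantile normalization (adjusted p = 0.000662). The count of genes called was 27 to 32 with a library left out, 32 without high glucose replicate 1, and 39 at an adjusted p of 0.3. In the main fit 46.8% of all genes passed, and 66.9% of those at 5 CPM or more. The share of all genes was not taken for the alternatives or for the threshold of 0.3. The counts in this paragraph therefore show only how stable the calls were. Synthesis genes called lower numbered 8 to 9, and oxidation genes called lower 8 to 10, in these refits. Storage depended on the settings more. Its genes called lower were 3 rather than 5 with equal totals, median-of-ratios scaling and quantile normalization, and 3 to 4 with a library left out, as DGAT1 and MGLL lay near the threshold. Its genes called higher were 5 rather than 3 with a minimum mean of 1 CPM or of 5 CPM and with the length or GC trend removed, and 3 to 5 with a library left out. Its median of -0.16 became 0.050 with the minimum of 5 CPM, which drops DGAT2, and -0.21 with the GC trend removed, and ran from -0.21 to -0.093 with a library left out, so no direction can be given to storage as a class. The synthesis median of -0.49 became -0.37 with the GC trend removed and ran from -0.55 to -0.47 with a library left out; the cause was not tested. Signs of small changes that had not passed turned for ELOVL5 (-0.0445 with quantile normalization, -0.048 with the GC trend removed), ACADM (-0.061, GC trend) and ACAA1 (0.035 with the length trend and 0.10 with the GC trend removed, and -0.11 to 0.0036 with a library left out). SREBF2, which had passed, turned to 0.043 with the GC trend removed. The replicate numbers did not pair the libraries: same-numbered libraries had correlations of their deviations of 0.069, -0.028, 0.014 and -0.04. With the replicate number as a block 29 of the 46 genes were called, 3 storage genes lower, and 69 of the other pathway genes. Depth limits ACSL5 and LIPE, which were near or under 3 reads.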
